A study of Saccharomyces cerevisiae with 6 samples.

Results

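The genes described here encode the histones of budding yeast (Saccharomyces cerevisiae): the core histones H2A (HTA1, HTA2), H2B (HTB1, HTB2), H3 (HHT1, HHT2) and H4 (HHF1, HHF2), the H2A variant H2A.Z (HTZ1) and the linker histone (HHO1). They were chosen as the probe sets whose platform annotation names at least 1 of these 10 genes, which gave 10 probe sets of the 9275 that are not array controls. RNA levels were measured in strain Y118, in which H2B carries the K123R substitution, and in strain Y117, labelled wild type. For each strain, early stationary phase cultures were diluted into the rich medium YPD at an OD600 of 0.3 and grown for 7 hours at 30 degrees to an OD600 of 2, in triplicate. The total RNA of every culture was profiled on its own Affymetrix S98 array, which measures 1 labelled sample with sets of short oligonucleotide probes; there are 3 arrays of H2B K123R and 3 of wild type. Each group is 1 strain, so the substitution and any further difference between Y118 and Y117 cannot be told apart. Nothing in the labels says that the cultures came from separate starters, so the p-values reflect only how far these cultures differ from each other, part of which may be technical.

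Each nucleosome holds a pair each of H2A, H2B, H3 and H4. In yeast each core histone has a pair of genes, arranged as divergent pairs that share a promoter: HTA1 with HTB1, HTA2 with HTB2, HHT1 with HHF1 and HHT2 with HHF2. Their transcription is confined largely to S phase and is activated through Spt10 and Spt21. Outside S phase the HIR complex represses most of these pairs, but not HTA2 with HTB2. The lysine replaced in K123R is the site at which H2B receives a single ubiquitin, a mark tied to transcription elongation and required for methylation of certain lysines of histone H3. HTZ1 and HHO1 are single-copy genes. H2A.Z, made outside the S phase programme, is placed at promoters by the SWR1 complex. The linker histone binds DNA between nucleosomes.

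Values are probe set signals on the linear scale as scaled by the authors, and fold changes come from log2(signal + 16). The median signal lay between 131 and 139 on the 6 arrays. The array of H2B K123R replicate 1 stood apart. Its log2 signals correlated at 0.958 and 0.969 with the other arrays of its group, against 0.991 between H2B K123R replicates 2 and 3 and 0.992 to 0.995 between wild-type arrays. Its 99th percentile of signal was 8652, against 10221 to 11395 on the other arrays, and its ratio of 3' to 5' actin signal was 1.98, against 1.40 to 1.59. Values without that array are given for some results, and a result without such a value may also depend on it.

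Only H2B can be read copy by copy. HTB1 (YDR224C) and HTB2 (YBL002W) each have a probe set that names no other gene, while 6 probe sets name both copies of H2A (2), H3 (3) or H4 (1). A comparison of the copies of H2A, H3 or H4 therefore could not be made. The arrays report RNA amounts and do not read the substitution itself.

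HTB2, 1 of the 2 H2B genes, gave no signal above background in either strain. Its probe set read 6.99, 2.90 and 2.53 in H2B K123R replicates 1 to 3, against 5.18, 11.3 and 3.82 in wild-type replicates 1 to 3. All 6 values lie between 0.922 and 18.3, the lowest and highest readings of the 4 mouse control probe sets, which have no target in yeast, so no fold change is given. Both genes that flank the HTA2-HTB2 pair were detected on the same arrays. UTP20, which encodes a ribosome assembly factor, averaged 369 ± 40.7 in H2B K123R and 369 ± 38.1 in wild type on its brightest probe set (mean ± SD over 3 arrays, as for all such pairs of means below). Its other probe sets varied widely in level, all with negative differences, and none passed limma's test. On 2467_s_at UTP20 averaged 266 ± 221 in H2B K123R and 431 ± 96.2 in wild type. On 2466_s_at it averaged 7.80 ± 4.52 and 10.3 ± 1.84, with every value inside the range of the mouse controls. ECM15 averaged 971 ± 129 in H2B K123R and 862 ± 113 in wild type. Whether the HTB2 probe set reads low for lack of transcript or because it does not detect the transcript was not tested. The labels do not say whether either strain carries HTB2. For the same reason it is not known whether HTA2 contributes to the H2A signals below.

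**Figure D1:**
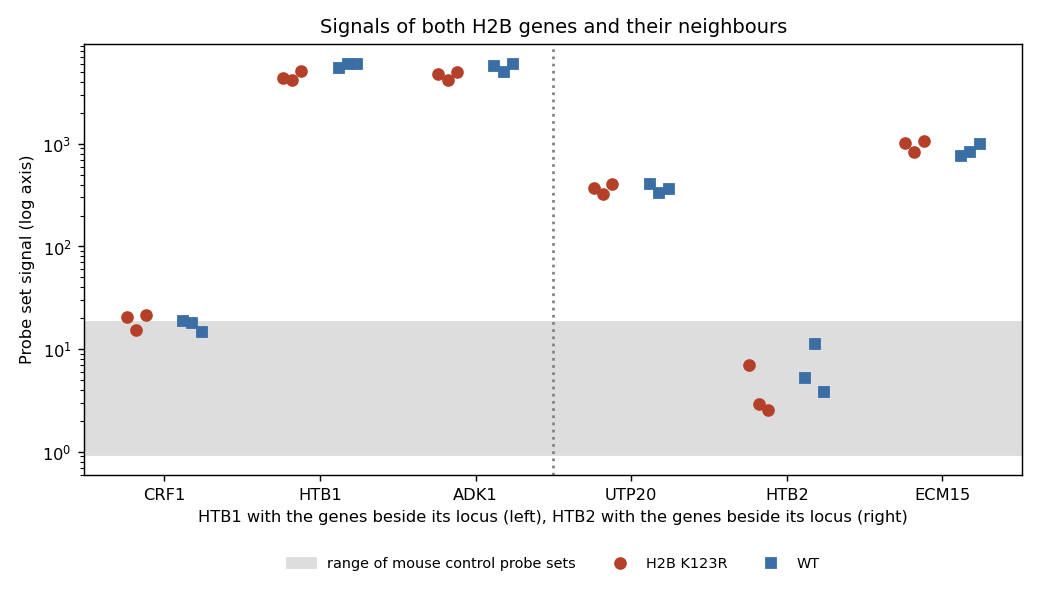
Probe set signal (log axis) on each array for HTB1 with CRF1 and ADK1, the genes beside its locus, and for HTB2 with UTP20 and ECM15, the genes beside its locus; circles are the 3 H2B K123R arrays, squares the 3 wild-type arrays, and the grey band spans 0.922 to 18.3, where the mouse controls lie. The 6 HTB2 values lie inside the band, while the lowest HTB1 value is 4209. UTP20 is shown on its brightest probe set.

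HTB1, the H2B gene with a measurable transcript, read 4392, 4209 and 5078 in H2B K123R replicates 1 to 3, against 5423, 6046 and 6039 in wild-type replicates 1 to 3. The highest mutant array lies below the lowest wild-type array. The means were 4560 ± 458 in H2B K123R and 5836 ± 358 in wild type. The log2 difference was -0.36 ± 0.09 (SE; 95% interval -0.58 to -0.13), or 1.28-fold lower in H2B K123R, and it did not pass limma's test over all probe sets (adjusted p = 0.0739). In RNA of whole cultures, fewer cells that express a gene and less of its RNA per cell cannot be told apart.

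Both H2A probe sets were lower in H2B K123R without overlap, and neither passed the test. On the probe set 7358_s_at, of a type that matches more than 1 gene, H2A read 4578, 4694 and 4932 in H2B K123R, against 5731, 5622 and 5822 in wild type. This is a log2 difference of -0.27 ± 0.06 (95% interval -0.42 to -0.12; limma adjusted p = 0.0526). Without H2B K123R replicate 1 this probe set passed, with a log2 difference of -0.25 and a limma adjusted p of 0.0421. On the brighter probe set 6236_i_at H2A read 9066, 10434 and 9539 in H2B K123R, against 10569, 10450 and 10899 in wild type. Replicate 2 of H2B K123R falls just under the lowest wild-type array there, and the log2 difference was -0.14 ± 0.07 (95% interval -0.32 to 0.04; limma adjusted p = 0.305). The log2 ratio of the brighter to the dimmer H2A probe set was 1.03 ± 0.11 in H2B K123R and 0.89 ± 0.01 in wild type (SD, n = 3 each).

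One H3 probe set was the single member that passed. On 7368_i_at H3 fell to 8914, 9248 and 9228 in H2B K123R replicates 1 to 3, against 11215, 12144 and 12251 in wild-type replicates 1 to 3. The mutant arrays lie close together and all lie below the wild-type arrays. The log2 difference was -0.38 ± 0.07 (95% interval -0.54 to -0.22; 1.30-fold lower; limma adjusted p = 0.0279). The other H3 probe sets differed in size. On 8910_at H3 read 10719, 12648 and 12553 in H2B K123R, against 14009, 14415 and 14582 in wild type, again without overlap (log2 difference -0.26 ± 0.08, 95% interval -0.46 to -0.06; limma adjusted p = 0.117). On 7369_s_at H3 read 2112, 1902 and 1639 in H2B K123R, against 1922, 1965 and 1993 in wild type. Here the groups overlap, with 1 mutant array above and 2 below all wild-type arrays (log2 difference -0.06 ± 0.10, 95% interval -0.31 to 0.18; limma adjusted p = 0.737).

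All 3 H3 probe sets name HHT1 and HHT2, so the unequal changes are between probe sets annotated to the same pair of genes. Whether each of them reads both copies equally was not tested. The log2 ratio of 7368_i_at to 7369_s_at was 2.27 ± 0.21 in H2B K123R and 2.59 ± 0.05 in wild type, a difference of -0.31. In a two-sided exact permutation test over the 6 arrays the p was 0.1, the smallest that 3 arrays against 3 can give, and 0.2 after adjustment over the 4 pairs of same-gene probe sets. The same p of 0.1 was found for the H2A pair by the exact permutation test, and 0.2 and 0.4 for the pairs of 8910_at with 7368_i_at and with 7369_s_at.

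H4, the partner of H3, has 1 probe set, which names HHF1 and HHF2. It read 2417, 1976 and 2078 in H2B K123R, against 2301, 2094 and 2339 in wild type. The groups overlap, replicate 1 of H2B K123R being the highest array of all. The log2 difference was -0.06 ± 0.10 (95% interval -0.29 to 0.17, limma adjusted p = 0.738). That interval includes the -0.26 measured for H3 on 8910_at, but not the -0.38 on 7368_i_at. Leaving out mutant replicate 1 made the H4 difference -0.145, and leaving out mutant replicate 2 made it -0.0008.

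**Figure D2:**
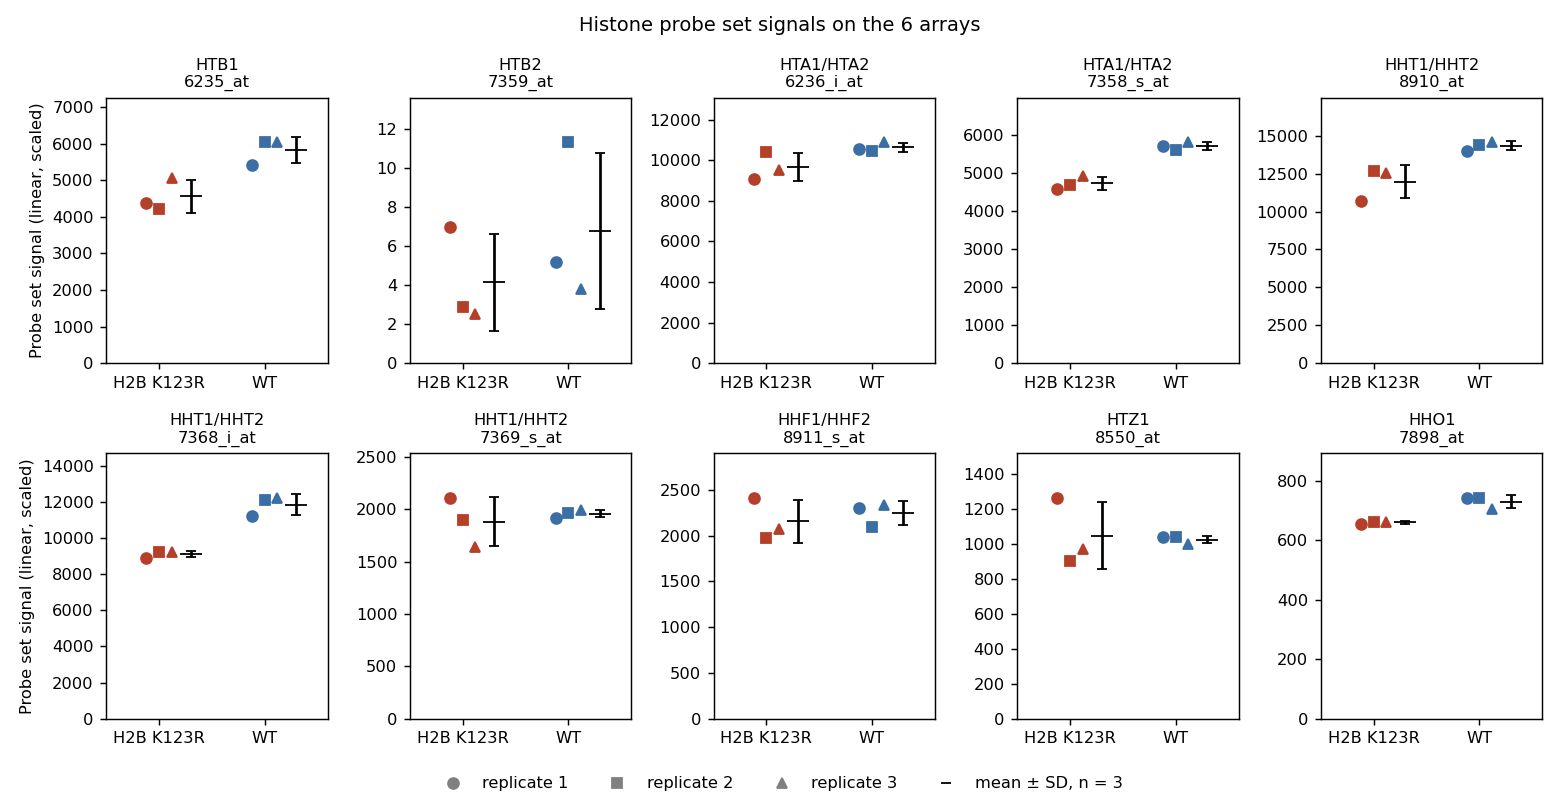
Probe set signal (linear, authors' scaling) of the 10 histone probe sets on the 3 H2B K123R arrays (left in each panel) and the 3 wild-type arrays (right), with symbols for the replicate number and bars for mean ± SD. HTB1, both H2A probe sets, the H3 probe sets 8910_at and 7368_i_at and HHO1 have all mutant arrays below all wild-type arrays; HTB2 is drawn on a scale of background values.

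HTZ1, the H2A.Z gene, read 1267, 906 and 975 in H2B K123R, against 1039, 1039 and 1002 in wild type. The mutant arrays lie on both sides of the wild-type arrays and replicate 1 is the high one. The log2 difference was 0.02 ± 0.13 (95% interval -0.29 to 0.33; limma adjusted p = 0.955), and -0.13 without H2B K123R replicate 1. The sign of this difference turned with the scaling as well, to -0.06 after quantile normalization and -0.07 after cyclic loess.

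HHO1, the linker histone gene, showed the tightest mutant values of the set. It read 656, 663 and 663 in H2B K123R, against 742, 744 and 706 in wild type. The groups do not overlap, the log2 difference was -0.14 ± 0.07 (95% interval -0.31 to 0.03), and the test was not passed (limma adjusted p = 0.273). The difference was -0.14 without H2B K123R replicate 1, -0.20 after quantile normalization and -0.25 after cyclic loess, where the bright core histones came closer to 0.

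Counted over the 10 histone probe sets, 1 passed limma's test, and it was lower in H2B K123R. Over all probe sets tested, 6.68% passed in either direction and 2.47% passed as lower in H2B K123R. An unadjusted p under 0.05 was found for 4 of the 10, and for 24.9% of all probe sets. The mutant arrays lay wholly below the wild-type arrays for 6 of the 10, which was the case for 13.5% of all probe sets, and wholly above for 0 of the 10, against 19% of all probe sets. The H2A probe sets share their transcripts, as do the H3 probe sets, so these 6 are not 6 independent genes. The 5 brightest of these 6 have mean signals above 4000, and 86.4% of the probe sets above that level were lower in H2B K123R. The share wholly below the wild-type arrays at that level was not counted. Among the 9 probe sets above background the median log2 difference was -0.14, and 8 were negative; the median over all probe sets was 0.02.

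The size of the differences in bright histones moved with the scaling. The 5 brightest histone probe sets (HTB1, both for H2A, 8910_at and 7368_i_at) have mean signals above 4000. Of the 375 probe sets of the whole array above that level, 86.4% were lower in H2B K123R, with a median log2 difference of -0.17, against 0.03 for the 995 with mean signals of 1000 to 4000. Without H2B K123R replicate 1 the median of the 375 was -0.09. After quantile normalization and cyclic loess it was -0.01 and -0.04. Under these scalings the H3 probe set 7368_i_at differed by -0.18 and -0.22 (limma adjusted p = 0.177 and 0.0832), 8910_at by -0.06 and -0.08, HTB1 by -0.25 and -0.28, and the H2A probe set 7358_s_at by -0.15 and -0.19. The other H2A probe set, 6236_i_at, turned to 0.04 and 0.01. The call of 7368_i_at was thus lost under both, while it held without H2B K123R replicate 1 (log2 difference -0.36, limma adjusted p = 0.0217). It was lost without any 1 of the other 5 arrays, with log2 differences of -0.35 to -0.42 and limma adjusted p of 0.0533 to 0.145. Without H2B K123R replicate 1 the log2 differences were -0.19 on 8910_at, -0.09 on 6236_i_at and -0.15 on 7369_s_at. With all arrays they were -0.26, -0.14 and -0.06.

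**Figure D3:**
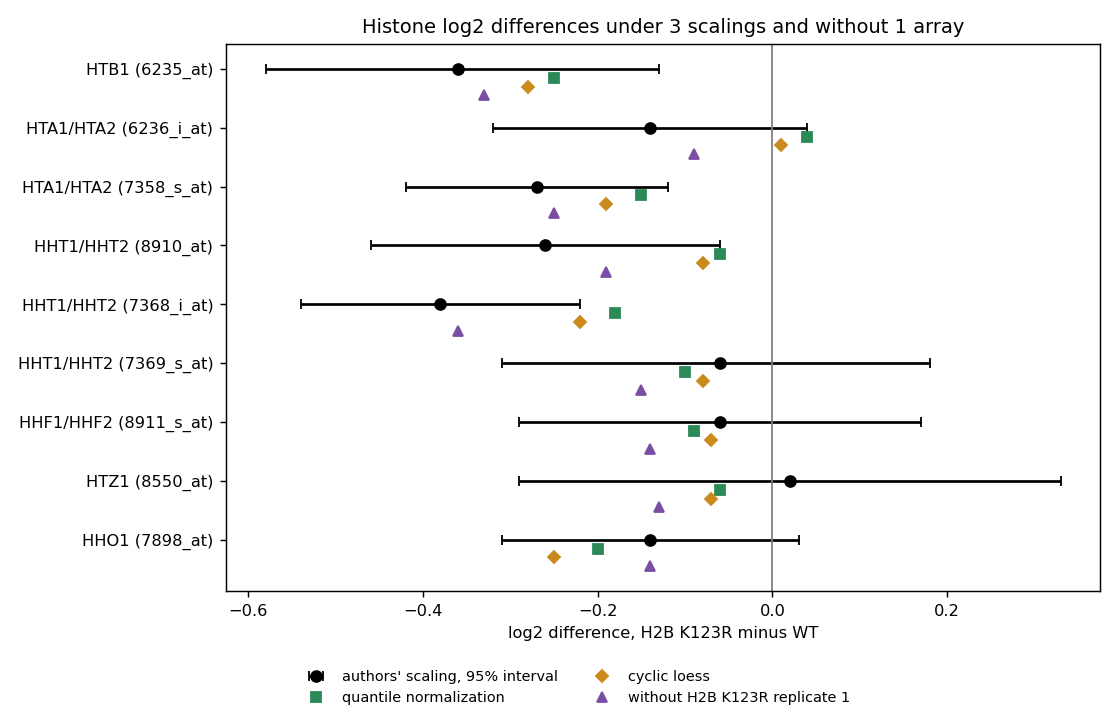
Log2 difference, H2B K123R minus wild type, for the 9 histone probe sets above background; circles with 95% intervals are limma estimates on the authors' scaling, squares follow quantile normalization, diamonds cyclic loess, and triangles leave out H2B K123R replicate 1. HTB1 stays between -0.25 and -0.36 under these settings, while 8910_at moves to -0.06 and -0.08 under the further normalizations.

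The genes beside the histone loci were measured as 12 neighbours, of which 0 passed limma's test, with a median log2 difference of 0.07, and of 0 without H2B K123R replicate 1. At an unadjusted p under 0.05 there were 2 of the 12, against 30.7% of all genes with 1 probe set each. ADK1, the adenylate kinase gene next to HTA1, read 4826, 4161 and 5048 in H2B K123R, against 5772, 5057 and 5936 in wild type. Its highest mutant value lies just under its lowest wild-type value, and the log2 difference was -0.26 ± 0.10 (limma adjusted p = 0.185). ADK1 is among the probe sets with mean signals above 4000, of which 86.4% were lower in H2B K123R, with a median log2 difference of -0.17. CRF1, on the other side of that locus, lay near the mouse controls with 19.3 ± 3.28 in H2B K123R and 17.2 ± 2.06 in wild type. NAN1, next to HHO1, was 455 ± 65.2 in H2B K123R and 360.6 ± 19.1 in wild type (log2 difference 0.31 ± 0.12, limma adjusted p = 0.172).

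Among 17 regulators and chaperones that act on histone genes or on histones, 1 rose and 0 fell; over all genes, with 1 probe set each, 6.06% rose and 2.92% fell. That gene was POB3, a subunit of the histone chaperone FACT, which read 1571, 1321 and 1397 in H2B K123R, against 1012, 911 and 940 in wild type. The groups are well separated (log2 difference 0.57 ± 0.09, 1.49-fold; limma adjusted p = 0.0216). SPT16, the other FACT subunit, named after its values were seen, was 902 ± 94.8 in H2B K123R and 746 ± 45.1 in wild type and did not pass (log2 difference 0.26 ± 0.10, limma adjusted p = 0.172). The POB3 call was lost without H2B K123R replicate 3 or without any 1 wild-type array, with log2 differences between 0.50 and 0.63 over the alternatives run. The HIR genes HIR1, HIR2, HIR3 and HPC2 had log2 differences of 0.08, -0.06, 0.07 and 0.04, and SPT10 and SPT21 of -0.23 and 0.03. None of these 6 passed. In some of them H2B K123R replicate 1 lay apart from replicates 2 and 3. SPT10 read 23.8, 49.7 and 43.8 in H2B K123R replicates 1 to 3, against 45.8, 52.2 and 43.5 in wild type. HIR2 read 430, 208 and 224 in H2B K123R, against 302, 271 and 283 in wild type. HPC2 read 197, 124 and 129 in H2B K123R, against 145, 139 and 141 in wild type. The median of the 17 was 0.08, and -0.01 without H2B K123R replicate 1.

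Of 8 RNA turnover factors linked to histone mRNA, 0 passed limma's test, and 0 had an unadjusted p under 0.05 (median log2 difference -0.12). The smallest p belonged to RRP6, a nuclear exosome exonuclease gene, at 340 ± 55.7 in H2B K123R and 418 ± 26.9 in wild type (log2 difference -0.30 ± 0.14, limma adjusted p = 0.238). Of 15 genes for H2A.Z exchange by the SWR1 complex and H2A.Z chaperones, 0 passed as well, with 4 at an unadjusted p under 0.05, a share near the 30.7% of all genes, and a median of 0.19. Closest was CHZ1, a chaperone of H2A.Z-H2B dimers, which read 1034, 799 and 934 in H2B K123R, against 667, 666 and 646 in wild type. Every mutant array lies above every wild-type array, and the log2 difference was 0.47 ± 0.11 (limma adjusted p = 0.0516). CHZ1 passed without H2B K123R replicate 1, as did ARP4 with a lower level in H2B K123R, and the median was then 0.11. Without H2B K123R replicate 2 CHZ1 passed and BDF1 passed as lower, with a median of 0.18. ARP4 and BDF1 were named after their values were seen. CSE4, the centromeric H3 variant gene, was 159 ± 34.8 in H2B K123R and 138 ± 10.4 in wild type (log2 difference 0.17 ± 0.17, limma adjusted p = 0.560). The difference was 0.02 without H2B K123R replicate 1.

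Because core histone transcripts are largely limited to S phase, genes of the cell cycle phases were set beside them. Of 24 genes of G1 and S phase, 2 rose and 2 fell, against 6.06% and 2.92% of all genes, with a median log2 difference of -0.07. RNR1, a ribonucleotide reductase subunit gene, fell to 1175 ± 74.1 in H2B K123R, against 1759 ± 119 in wild type (log2 difference -0.57 ± 0.09, limma adjusted p = 0.0195). CLN1, a G1 cyclin gene, fell to 247 ± 4.02, against 403 ± 14.0 in wild type (-0.67 ± 0.09, limma adjusted p = 0.0144). RFA3, a subunit of the single-stranded DNA binding factor of replication, and SMC3, a cohesin subunit gene, rose by log2 differences of 0.31 and 0.51 (limma adjusted p = 0.0471 and 0.0367). The counts depended on the scaling: 1 rose and 3 fell after quantile normalization (median -0.14), and 0 rose and 3 fell after cyclic loess (median -0.18). Without H2B K123R replicate 3 or any 1 wild-type array 0 of the 24 passed, and without H2B K123R replicate 2 only RNR1 and CLN1 did. Over all probe sets, 0.755% passed without H2B K123R replicate 3 and 0.237% to 0.636% without 1 wild-type array. Without H2B K123R replicate 2 it was 5.39%.

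Of 12 measured genes of G2 and M phase (13 listed), 2 rose and 1 fell, against 6.06% and 2.92% of all genes. Their median was 0.22, and it was 0.16 after quantile normalization and 0.11 after cyclic loess. With the replicate block 0 passed. CDC20, an activator of the anaphase-promoting complex, rose to 551 ± 37.4 in H2B K123R, against 401 ± 18.4 in wild type, and CLB1, a mitotic cyclin gene, fell to 207 ± 26.5, against 308 ± 12.7 in wild type. BUD4, a bud site gene, rose on its brightest probe set (log2 difference 0.50), while its 5 other probe sets had negative differences and did not pass. On each of these 5, H2B K123R replicate 1 was the lowest array. On 3012_s_at, the brightest of them, H2B K123R read 72.3, 504 and 360, against 382, 401 and 380 in wild type. In this G2 and M list 0 passed without H2B K123R replicate 3 or any 1 wild-type array, and 1 without H2B K123R replicate 2 (KIN3, named after its values were seen). Of 12 genes expressed from mitosis into G1, 4 fell and 0 rose, against 2.92% and 6.06% of all genes. Of these 12, 11 were negative and the median was -0.48. The fallen genes were DSE2 and EGT2, which serve the separation of daughter cells, CTS1, the chitinase of that process, and FAR1, an inhibitor of G1 cyclin kinases. DSE2 read 1936, 1798 and 2021 in H2B K123R, against 3001, 2980 and 3018 in wild type, which is a log2 difference of -0.64 ± 0.07 (limma adjusted p = 0.00978). CTS1 read 3658 ± 272 in H2B K123R and 5173 ± 202 in wild type (-0.50 ± 0.08, limma adjusted p = 0.0209). Without any 1 wild-type array 0 of the 12 passed, with a median between -0.44 and -0.50. Without H2B K123R replicate 2 and replicate 3, 2 and 1 of the 12 passed. Without H2B K123R replicate 1 the median of these M to G1 genes was -0.45 and 7 of the 12 fell. Calls over all probe sets moved as well. Without H2B K123R replicates 1, 2 and 3 in turn, 11%, 5.39% and 0.755% of all probe sets passed. Without 1 wild-type array 0.237% to 0.636% passed. The part of cell cycle distribution in the histone values was not tested.

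**Figure D4:**
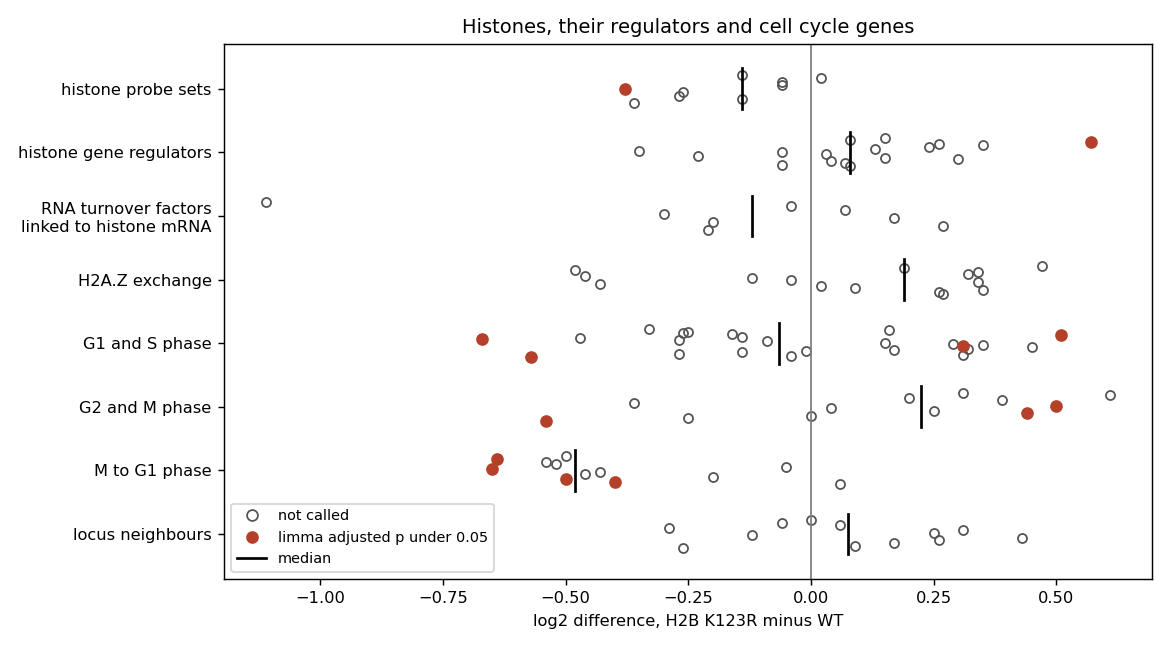
Log2 difference, H2B K123R minus wild type, for the 9 histone probe sets above background and for the genes of 7 lists with 1 probe set per gene; filled points have a limma adjusted p under 0.05 and black bars are medians. The histone median is -0.14, and the genes expressed from mitosis into G1 have a median of -0.48.

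The genes whose profile over the 6 arrays was most like that of the core histones were OYE2, PMP1, MES1, SAM1 and EAF1. Likeness was the root mean square difference of centred log2 values from the mean of the 7 core histone probe sets above background, among 3806 genes above the median level, and it was 0.030 to 0.039 for these 5. The core profile itself was -0.12, -0.11 and -0.10 in H2B K123R replicates 1 to 3, against 0.08, 0.10 and 0.15 in wild-type replicates 1 to 3. OYE2, an NADPH oxidoreductase gene, was 4359 ± 142 in H2B K123R and 5028 ± 131 in wild type. SAM1, an S-adenosylmethionine synthetase gene, was 1370 ± 10.0 in H2B K123R and 1612 ± 38.8 in wild type. MES1, the methionyl-tRNA synthetase gene, was 3555 ± 146 in H2B K123R and 4204 ± 147 in wild type. None of the 5 passed limma's test (adjusted p of 0.0803 to 0.180).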

How the data were processed

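Each array has 1 column of deposited intensity values, a linear signal per probe set. The authors had already scaled them: the mean after trimming 2% at each end was 500.4 to 500.5 on each array. The sources used here do not give the software that summarized the probes. Of 9335 probe sets, 60 controls were set aside. The platform annotation, updated through gene identifiers against the R64 gene table (0 symbols changed), gave 1 gene for 6504 probe sets, several for 328 and none for 2443. No genome build is named for the array, so no coordinates are given, and R64 served for names and gene order.

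Differences were tested on log2(signal + 16) with limma 3.58.1 in R 4.3.3 (two-sided; empirical Bayes, variance trend), adjusted by Benjamini-Hochberg over 9275 probe sets, with a threshold of 0.05. Lists used 1 probe set per gene, that with the highest mean, over 5656 genes. Exact permutation tests used scipy 1.17.1. The number of arrays limits the precision: in simulated data of 9275 probe sets for this comparison, 24% of 1.5-fold and 63% of 2-fold changes were recovered, and 3.33% of calls were false. The changes were placed in 100 probe sets of each size, drawn from all signal levels, with independent noise. These shares therefore do not describe bright histone probe sets alone, or data with an array that deviates as a whole. Every histone probe set was named. From each list the genes that passed were named, or else the one with the smallest p, and any locus neighbour could be; the HIR genes, SPT10 and SPT21 were named for their role, after their values were seen. The histone genes, lists and tests were chosen with earlier results of these data known. Mating type markers were also listed: of 6 a-cell genes 2 fell (BAR1 and MFA1) and 0 rose, and of 4 alpha-cell genes 2 rose (MF(ALPHA)1 and MF(ALPHA)2) and 0 fell, against 2.92% of all genes that fell and 6.06% that rose. In both lists 0 passed with the replicate block and without H2B K123R replicate 2 or 3 or any 1 wild-type array. MF(ALPHA)1 and MF(ALPHA)2 were dim, at means of 79.4 and 71.6 in H2B K123R and 44.4 and 40.8 in wild type. These lie below the median signals of the arrays, 131 to 139. MFA1 averaged 2356 in H2B K123R and 3612 in wild type, and BAR1 1395 and 1846. Alternatives were 2 pseudocounts, 2 normalizations, no trend, array weights, a filter on dim probe sets, a replicate block and each array left out. Level classes of signal were added after seeing the data.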

Additional observations from a re-analysis of the deposited data

How the results depend on the processing

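Over 14 alternatives, HTB1, 7358_s_at, 7368_i_at, 8910_at, H4 and HHO1 kept a negative sign in all, though H4 came to -0.0008 without H2B K123R replicate 2 and ran from -0.145 to -0.0008 with 1 array left out. The H2A probe set 6236_i_at turned to 0.0352 after quantile normalization and 0.0143 after cyclic loess, and the H3 probe set 7369_s_at to 0.0322 without H2B K123R replicate 3 (its values with 1 array left out ran from -0.1492 to 0.0322). HTZ1 turned to -0.0552 after quantile normalization, -0.066 after cyclic loess and -0.0624 with array quality weights, and ran from -0.1253 to 0.1131 with 1 array left out, negative without H2B K123R replicate 1 (-0.1253) and wild-type replicate 3 (-0.0011). The histone probe sets that passed, 1 as reported, numbered 0 after quantile normalization, 0 after cyclic loess, 0 without the variance trend, 0 with the replicate block, 3 among probe sets above the median level and 6 with array quality weights. With 1 array left out they numbered 0 to 2. Over all probe sets, 620 passed, 307 with the replicate block, 2885 with array quality weights and 22 to 1023 with 1 array left out: 1023 without H2B K123R replicate 1, 70 without H2B K123R replicate 3, and 59, 42 and 22 without wild-type replicates 1, 2 and 3. The causes were not tested. The G1 and S phase list had 0 genes higher and 2 lower with the replicate block. The replicate numbers were not taken as pairs: deviations from the group means correlated at 0.32, 0.38 and 0.05 for numbers 1, 2 and 3, although each array correlated best with its own number. Paralogue differences were not run, because only HTB1 and HTB2 have their own probe sets and HTB2 lay at background.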
